A study of Mus musculus with 16 samples.

Results

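Ubiquitin-specific proteases (USPs) are the largest family of deubiquitinases, the enzymes that remove ubiquitin from proteins, and their messenger RNA was examined in the tibialis anterior muscle of mice that lack the ubiquitin ligase UBR4 in skeletal myofibers and of control mice. All genes whose symbol is Usp followed by a number were taken, with 1 X-linked and 1 Y-linked member left out. This gave 56 of the 47643 genes in the deposited table, of which 54 are annotated as protein-coding. The symbol rule also takes Usp6nl, a GTPase-activating protein for Rab proteins rather than a protease, and the noncoding antisense genes Usp46os1 and Usp46os2.

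RNA was sequenced in 16 samples, 4 in each group, from mice of the C57BL6/J strain. WT and UBR4 mKO mice were compared at 6 and at 24 months of age. All 4 groups carry homozygous floxed Ubr4 alleles and received tamoxifen at 3 months of age, and UBR4 mKO mice also carry an ACTA1-Cre transgene, which acts in skeletal myofibers, while WT controls are siblings without Cre. Ubr4 is therefore kept in the other cells of the muscle, and whole-muscle RNA cannot tell fewer cells of a type from less RNA per cell.

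Ubiquitin ligases attach ubiquitin to proteins, often as a signal for degradation by the proteasome, and deubiquitinases edit or remove that signal. USPs are cysteine proteases with a conserved catalytic domain, and they differ in where they sit in the cell and which proteins they act on. Some recycle ubiquitin at the proteasome, some act on membrane proteins as they are sorted through endosomes, and others act on histones, DNA repair factors or signalling proteins. In muscle, protein turnover through ubiquitin and the proteasome is a main route of fiber remodelling and atrophy.

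The start sites of members that muscle expressed were rich in CG dinucleotides. The promoters below, each a window of 300 bases at the start of a RefSeq gene on GRCm38.p6, are those of the most abundant member (Usp47), of the pair with the largest rises at 6 months (Usp28 and Usp20) and of a member at 0 TPM in every sample (Usp26). Capitals mark each CG dinucleotide.
Usp47 (chr7:112023256-112023555, + strand): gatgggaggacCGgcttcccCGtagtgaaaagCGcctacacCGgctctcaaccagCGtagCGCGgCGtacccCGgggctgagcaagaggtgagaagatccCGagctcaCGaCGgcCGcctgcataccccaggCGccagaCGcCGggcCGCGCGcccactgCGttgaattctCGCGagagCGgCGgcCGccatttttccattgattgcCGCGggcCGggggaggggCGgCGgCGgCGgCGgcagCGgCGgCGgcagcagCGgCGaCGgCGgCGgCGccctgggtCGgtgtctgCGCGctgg
Usp28 (chr9:48985135-48985434, + strand): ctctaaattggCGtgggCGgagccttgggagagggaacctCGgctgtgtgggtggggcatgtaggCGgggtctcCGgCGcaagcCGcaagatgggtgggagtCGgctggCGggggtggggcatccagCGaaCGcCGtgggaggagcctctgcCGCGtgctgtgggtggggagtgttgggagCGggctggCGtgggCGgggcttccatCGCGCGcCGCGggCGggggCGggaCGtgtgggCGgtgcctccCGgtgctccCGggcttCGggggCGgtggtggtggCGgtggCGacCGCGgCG
Usp20 (chr2:30982029-30982328, + strand): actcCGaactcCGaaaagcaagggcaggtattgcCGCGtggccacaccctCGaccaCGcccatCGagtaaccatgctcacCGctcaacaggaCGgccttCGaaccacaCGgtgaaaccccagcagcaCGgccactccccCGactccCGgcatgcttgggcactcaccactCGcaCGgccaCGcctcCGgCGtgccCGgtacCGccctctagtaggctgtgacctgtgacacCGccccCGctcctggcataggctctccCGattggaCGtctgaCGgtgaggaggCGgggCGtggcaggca
Usp26 (chrX:51801184-51801483, - strand): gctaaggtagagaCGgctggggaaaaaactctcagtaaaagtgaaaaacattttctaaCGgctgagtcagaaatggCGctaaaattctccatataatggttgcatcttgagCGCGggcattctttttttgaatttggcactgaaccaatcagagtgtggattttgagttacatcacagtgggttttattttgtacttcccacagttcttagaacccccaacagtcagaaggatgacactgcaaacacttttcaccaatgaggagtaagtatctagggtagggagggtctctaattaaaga
CG occurs 45 times in the Usp47 window, 35 times in that of Usp28, 28 times in that of Usp20 and 5 times in that of Usp26. The 33 promoters of 32 members with a mean of at least 1 TPM held a median of 33 CG dinucleotides in 300 bases, against a median of 5 in the 11 promoters of less abundant members and of 7 in all 32851 promoters. The counts ran from 2 to 63 in the members of at least 1 TPM and from 0 to 30 in the less abundant members, so the sets overlap. The promoters of all genes expressed at that level were not counted, so whether this richness is particular to the family is not known. The E-box CACGTG, which clock and other bHLH proteins bind, was searched on both strands and was found in the promoters of Usp4, Usp6nl, Usp16, Usp31 and Usp32 among 43 members, and in 7.15% of all promoters. The letters CCGGAAG, the core of ETS factor sites, were found in 8 members (Usp8, Usp11, Usp16, Usp19, Usp24, Usp30, Usp36 and Usp38) and in 8.86% of all promoters, and TATAAA was found in 5 members (Usp17lb, Usp17lc, Usp17ld, Usp19 and Usp40) and in 13.6% of all promoters. These matches are letters in a window and not sites shown to be bound.

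Values are TPM, a transcript level that is corrected for length and sums to the same total in every sample, so the number of reads behind them is unknown. Ubr4 itself was 12.2 ± 2.82 TPM in WT and 5.49 ± 0.749 TPM in UBR4 mKO at 6 months, and 18.3 ± 1.89 and 9.14 ± 4.33 TPM at 24 months (mean ± SD, n = 4). The log2 fold change was -1.12 at both ages by the limma test described below, with an adjusted p = 0.00365 at 6 months and 0.0598 at 24 months. After the median-of-ratios scaling described next it was -1.47 at 6 months (adjusted p = 0.000565) and -1.14 at 24 months (adjusted p = 0.0281). The 24-month UBR4 mKO samples measured 10.1, 14.6, 4.28 and 7.63 TPM, all below the lowest WT sample at 17.0 TPM, with replicate 2 the nearest. Mitochondrially encoded RNA took 52.6% to 59.7% of the TPM in 6-month WT and 46.1% to 51.7% in the other groups, so all values were also examined after median-of-ratios scaling, which equalizes the median gene between samples. Its factors ran from 0.717 to 1.01 in 6-month WT and from 0.928 to 1.17 elsewhere. The libraries are labelled male, yet Xist, which is expressed from an inactive X chromosome, was at 0.711 to 23.8 TPM in the 8 libraries of 6-month mice and at most 0.0252 TPM at 24 months. In 6-month UBR4 mKO replicate 4, Xist was 23.8 TPM and the Y-linked Ddx3y was 0.0730 TPM, while the other 6-month libraries held both. In those Ddx3y ran from 2.29 to 13.4 TPM in WT and from 13.2 to 22.6 TPM in UBR4 mKO. It ran from 19.2 to 23.2 TPM in 24-month WT. Xist thus differed between the ages in every library, and comparisons between ages, the interaction included, cannot be told apart from it. The 6-month libraries thus go against their label, and whether they hold RNA of more than 1 mouse or are mislabelled was not tested, so that n = 4 counts libraries. The counts of calls, and the calls made under both scalings (Usp14, Usp20 and Usp28), are given also without that replicate 4 or with a covariate from 4 Y-linked genes.

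Muscle expressed 40 of the 56 members at a mean of at least 1 TPM, of which 14 reached 10 TPM, and these 40 were tested. Another 6 members (Usp17lb, Usp17ld, Usp17le, Usp26, Usp46os1 and Usp46os2) were listed at 0 in every sample, 3 were above 0 in only 1 or 2 samples, and 47 were above 0 in all 16. Abundance was concentrated in few genes, since the 6 highest members held 58.9% of the summed mean of 602.7 TPM.

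**Figure D1:**
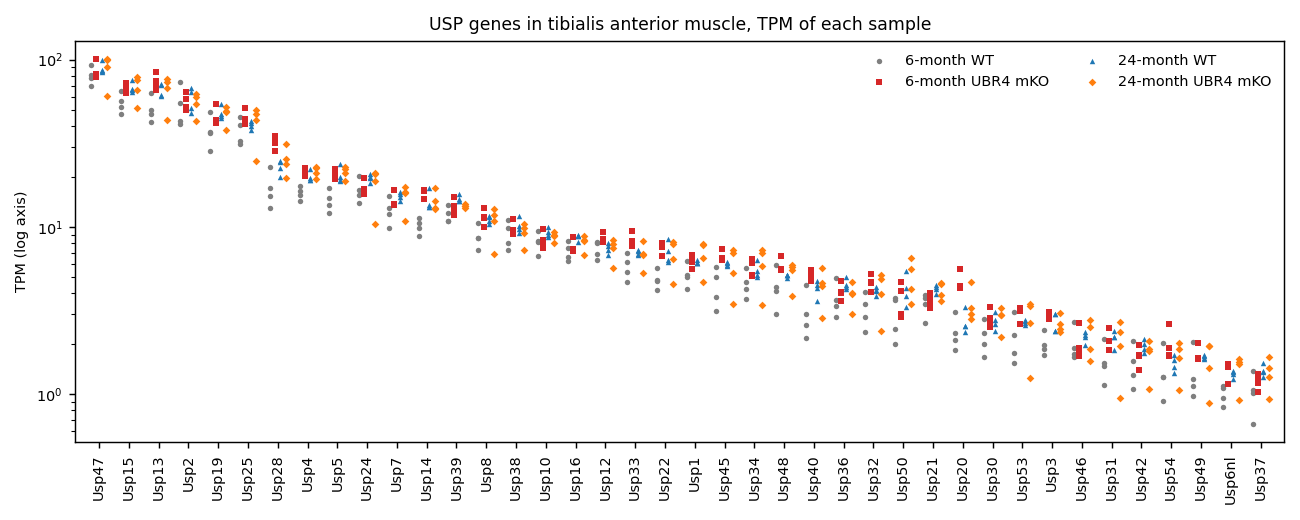
TPM (log axis) of the 40 USP genes with a mean of at least 1 TPM, ordered by mean, with each point 1 sample and the 4 groups shown by colour and marker. Usp47 leads at a mean of 85.7 TPM and Usp37 closes the list at 1.23 TPM, and the lowest sample of a gene was a 6-month WT sample for 30 of the 40 and the third 24-month UBR4 mKO sample for the other 10.

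In 6-month WT muscle the order was led by Usp47, which acts on DNA polymerase beta in base excision repair, at 80.2 ± 9.29 TPM (SD, n = 4). It was followed by Usp15, a regulator of TGF-beta signalling, at 55.3 ± 7.24 TPM, Usp2, a deubiquitinase with circadian expression, at 53.1 ± 14.7 TPM, and Usp13, a relative of Usp5, at 50.5 ± 8.81 TPM. Usp19, which is anchored in the endoplasmic reticulum and is known from muscle atrophy, was at 37.6 ± 8.26 TPM, and Usp25, a paralogue of Usp28, was at 37.6 ± 6.70 TPM. Usp28, Usp24, Usp4 and Usp5 came next at means of 17.0, 16.5, 15.96 and 14.4 TPM. The samples of Usp47 lay above those of Usp15 without overlap, as did those of Usp25 above those of Usp28, whereas the other neighbours among these 10 overlapped.

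Group means of a member differed by less than the members did among each other. For tested members the highest group mean was between 1.09 and 2.00 times the lowest, with a median ratio of 1.33, and the lowest group was 6-month WT for all 40. Summed over the family, the level was 519 ± 85.6 TPM in 6-month WT, 643 ± 56.9 in 6-month UBR4 mKO, 628 ± 40.8 in 24-month WT and 621 ± 109 in 24-month UBR4 mKO (SD, n = 4). After median-of-ratios scaling the same sums were 602 ± 21.0, 587 ± 22.9, 607 ± 26.3 and 586 ± 57.4 TPM.

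Loss of UBR4 at 6 months was compared first. Of the 40 tested members 14 were higher in UBR4 mKO than in WT and 0 were lower, by limma's moderated test on log2(TPM + 0.1) with Benjamini-Hochberg adjustment over the 10628 genes tested (adjusted p under 0.05, as for every adjusted p given here). This is 35% of the members, against 44.9% of all genes tested called in either direction and 43.7% called higher. The samples of 13 members, all called, lay higher in UBR4 mKO without overlap, against 39% of all genes. The log2 fold change was above 0 for all 40 members, with a median of 0.35, where the median of all genes was 0.33. After median-of-ratios scaling, which took the median of all genes to -0.02, 3 members rose and 3 fell, against 16.8% of all genes called, and the members' median was 0.01, with 20 of 40 above 0. Usp20, Usp28 and Usp14 were called higher under both scalings. With the Y-linked covariate on deposited TPM, 13 members were called, against 44.1% of all genes.

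**Figure D2:**
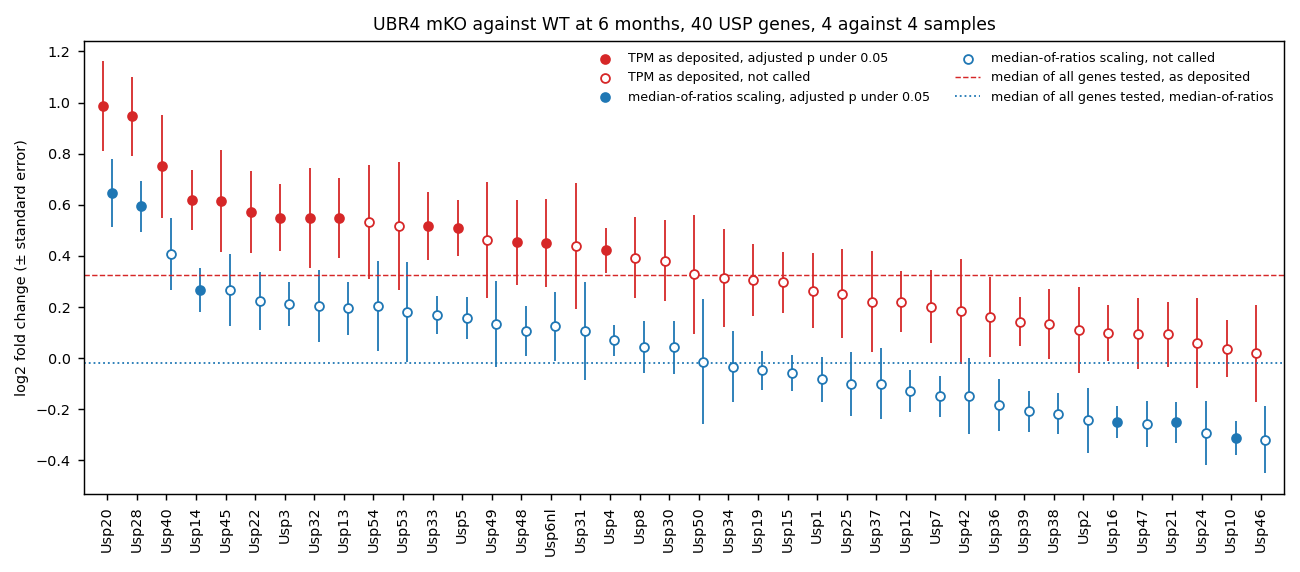
Log2 fold change of UBR4 mKO against WT at 6 months (± standard error, 4 against 4 samples) for the 40 tested USP genes, on deposited TPM (red) and after median-of-ratios scaling (blue), with filled points at an adjusted p under 0.05 and horizontal lines at the median of all genes. On deposited TPM all 40 points lie above 0 and 14 are filled, and after scaling 6 are filled, 3 on each side of 0.

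Among the USPs of ubiquitin recycling and the proteasome, all 3 tested genes rose at 6 months, and 1 of them, Usp14, was called after scaling as well. In this and the other role groups the counts stand against the 43.7% of all genes called higher. Usp14 is bound to the proteasome and trims ubiquitin chains from proteins that arrive there. It measured 10.5, 11.3, 9.90 and 8.78 TPM in the 4 WT samples and 16.6, 14.6, 14.6 and 16.4 TPM in UBR4 mKO at 6 months. At 24 months it measured 13.2, 13.1, 13.5 and 17.1 TPM in WT and 14.3, 12.9, 12.7 and 17.0 TPM in UBR4 mKO. At 6 months each UBR4 mKO sample was above each WT sample, and at 24 months the genotypes overlapped. The log2 fold change at 6 months was 0.62 ± 0.12 (SE, n = 4, adjusted p = 0.00115), or 0.27 ± 0.08 after median-of-ratios scaling (adjusted p = 0.0415). On that scale the call was lost without 6-month UBR4 mKO replicate 4 (adjusted p = 0.0614), without 6-month WT replicate 4 (0.0672) and with the Y-linked covariate (0.0575). Usp14 shares 2169 exon bases, 26.0% of its exon sequence, with Thoc1 on the opposite strand, whose own log2 fold change was 0.44 (adjusted p = 0.0210, and 0.09, adjusted p = 0.560, after scaling), and reads of the pair could not be told apart here.
Usp5 takes free ubiquitin chains apart. It rose from 14.9, 17.1, 13.6 and 12.2 TPM in WT to 19.4, 19.9, 20.3 and 22.3 TPM in UBR4 mKO, without overlap (log2 fold change 0.51 ± 0.11, adjusted p = 0.00239). Usp13, its close relative, rose from 49.8, 62.8, 47.0 and 42.2 TPM to 69.2, 65.5, 74.1 and 84.7 TPM, also without overlap (0.55 ± 0.16, adjusted p = 0.0116). After median-of-ratios scaling neither was called (log2 fold changes of 0.16 and 0.19, adjusted p = 0.197 and 0.214).

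Usp20 and Usp28 rose most. Usp20 is a deubiquitinase of the endoplasmic reticulum and of receptor recycling. It measured 2.32, 3.08, 2.10 and 1.84 TPM in 6-month WT and 4.29, 4.32, 4.45 and 5.61 TPM in 6-month UBR4 mKO. It measured 2.56, 2.36, 2.54 and 3.34 TPM in 24-month WT and 3.03, 2.83, 3.29 and 4.68 TPM in 24-month UBR4 mKO. The 6-month UBR4 mKO samples were above those of 6-month WT and of 24-month WT, and its mean at 6 months was 2.00 times that of WT. The log2 fold change was 0.99 ± 0.18 (SE, n = 4, adjusted p = 0.000741), and 0.64 ± 0.13 after median-of-ratios scaling (adjusted p = 0.00419). Without 6-month UBR4 mKO replicate 4 it was 0.90 (adjusted p = 0.00348), and with the covariate from Y-linked genes 1.01 (adjusted p = 0.000967).
Usp28, which is known for stabilizing MYC and for its role in the p53 response, measured 17.1, 22.7, 15.3 and 12.9 TPM in 6-month WT and 31.8, 28.5, 35.2 and 33.4 TPM in 6-month UBR4 mKO. It measured 24.3, 19.8, 22.5 and 24.9 TPM in 24-month WT and 25.5, 23.9, 19.7 and 31.5 TPM in 24-month UBR4 mKO. The genotypes did not overlap at 6 months and overlapped at 24 months. The log2 fold change at 6 months was 0.95 ± 0.15 (SE, n = 4, adjusted p = 0.000433), and 0.59 ± 0.10 after median-of-ratios scaling (adjusted p = 0.00104). Without 6-month UBR4 mKO replicate 4 it was 0.93 (adjusted p = 0.00174). Both genes passed in every alternative in which they were tested, 31 for Usp28 and 30 for Usp20, with a highest adjusted p of 0.0353 and 0.0357. Usp25, the paralogue of Usp28, measured 37.6 ± 6.70 TPM in WT and 44.5 ± 4.71 TPM in UBR4 mKO, which overlapped (0.25 ± 0.17, adjusted p = 0.228).

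**Figure D3:**
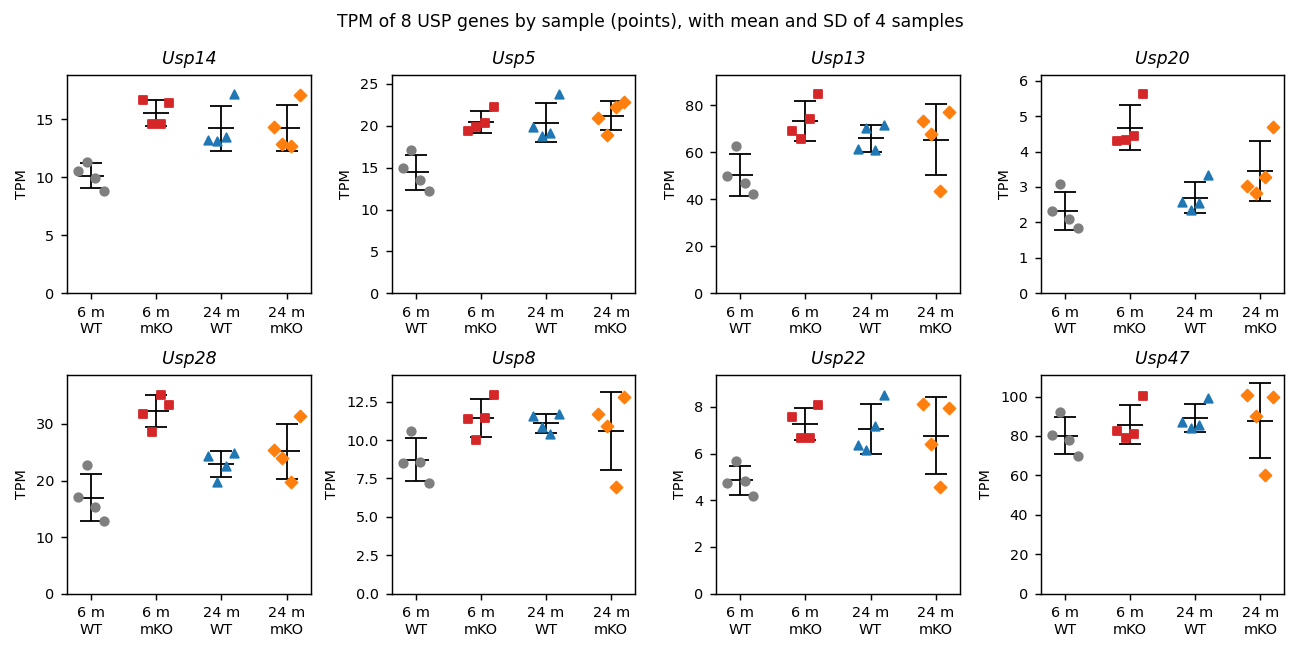
TPM of 8 USP genes in each of the 16 samples (points) with the mean and SD of each group of 4 (bars), the y axes starting at 0. In 6-month UBR4 mKO, Usp20 lies between 4.29 and 5.61 TPM and Usp28 between 28.5 and 35.2 TPM, all above the 6-month WT samples, while at 24 months the genotypes overlap for each of the 8 genes.

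Among the 7 USPs of membranes, endoplasmic reticulum, mitochondria and trafficking, Usp20, Usp32 and Usp33 rose at 6 months, a share close to that of all genes. Usp33, the paralogue of Usp20, measured 6.19, 6.96, 5.36 and 4.68 TPM in WT and 7.64, 7.85, 8.18 and 9.45 TPM in UBR4 mKO, without overlap (log2 fold change 0.52 ± 0.13, adjusted p = 0.00698, and 0.17, adjusted p = 0.136, after scaling). Usp32, which acts on endosomal and Golgi membranes, changed by 0.55 ± 0.20 (adjusted p = 0.0338, and 0.20, adjusted p = 0.343, after scaling), and the call held in 11 of 16 cases when single samples were left out. Usp8 deubiquitinates receptors at endosomes together with the sorting proteins STAM and HGS, and is the USP that the study examined by RNAi in fly muscle. It measured 8.54, 10.6, 8.55 and 7.23 TPM in 6-month WT and 11.4, 9.98, 11.5 and 13.0 TPM in 6-month UBR4 mKO. It measured 11.5, 10.8, 10.4 and 11.7 TPM in 24-month WT and 11.7, 10.9, 6.92 and 12.8 TPM in 24-month UBR4 mKO. Its 6-month genotypes overlapped at 1 sample each and the difference just missed the threshold (0.39 ± 0.16, adjusted p = 0.0514; exact permutation p = 0.0571, where the smallest possible is 0.0286). After scaling its log2 fold change was 0.04 (adjusted p = 0.807). Usp19 (0.31 ± 0.14, adjusted p = 0.0824) and the mitochondrial Usp30 (0.38 ± 0.16, adjusted p = 0.0597) were not called. Usp10, which acts with G3BP proteins in stress granules, was at 8.13 ± 1.12 TPM in WT and 8.34 ± 1.02 TPM in UBR4 mKO. After scaling it was called lower (-0.31 ± 0.06, adjusted p = 0.00445), but not with mitochondrial genes left out in place of that scaling (-0.22, adjusted p = 0.118).

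Of the 8 tested USPs of histones and transcription, Usp3 and Usp22 rose at 6 months, where 43.7% of all genes did. Usp22 is the deubiquitinase of the SAGA transcription complex and measured 4.73, 5.70, 4.82 and 4.20 TPM in 6-month WT and 7.58, 6.69, 6.69 and 8.06 TPM in 6-month UBR4 mKO. Its groups did not overlap (log2 fold change 0.57 ± 0.16, adjusted p = 0.0112, and 0.22, adjusted p = 0.190, after scaling). Usp3, a histone H2A deubiquitinase, changed by 0.55 ± 0.13 (adjusted p = 0.00462, and 0.21, adjusted p = 0.104, after scaling). Usp16 and Usp21, which also act on histone H2A, differed little in TPM, with means of 7.15 and 7.65 TPM for Usp16 and of 3.46 and 3.67 TPM for Usp21 in WT and UBR4 mKO. Both were called lower after scaling (each -0.25, adjusted p = 0.0136 and 0.0448). For Usp21 the call on that scale was lost without 6-month UBR4 mKO replicate 4 (adjusted p = 0.0642) and with the Y-linked covariate (0.0627), and with mitochondrial genes left out in its place neither Usp16 (adjusted p = 0.292) nor Usp21 (0.348) was called. Usp7, known for its action on MDM2 and p53, was not called (0.20 ± 0.14, adjusted p = 0.237).

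Usp45 and Usp48 rose among the 7 members of DNA repair and WDR48 complexes, where 43.7% of all genes did. Usp45, which acts on the repair endonuclease subunit ERCC1, changed by 0.61 ± 0.20 (adjusted p = 0.0220, and 0.27, adjusted p = 0.208, after scaling), a call that held in 13 of 16 cases with single samples left out. Usp48 changed by 0.45 ± 0.17 (adjusted p = 0.0367, and 0.11, adjusted p = 0.484, after scaling), although its samples overlapped, and the call held in 9 of 16 cases when single samples were left out. The most abundant member, Usp47, measured 80.7, 92.3, 77.8 and 69.9 TPM in 6-month WT and 82.4, 79.1, 80.9 and 100.4 TPM in 6-month UBR4 mKO. At 24 months it measured 87.2, 84.1, 85.6 and 99.4 TPM in WT and 101, 90.1, 60.5 and 99.8 TPM in UBR4 mKO. Its genotypes overlapped at both ages (0.10 ± 0.14, adjusted p = 0.560, 95% interval -0.20 to 0.39 at 6 months). After scaling the 6-month value was -0.26 ± 0.09 (adjusted p = 0.0637), and it passed as lower on that scale without 24-month UBR4 mKO replicate 3 (adjusted p = 0.00394) and without 6-month UBR4 mKO replicate 4 (-0.30, adjusted p = 0.0460). Usp1, Usp12 and Usp46, the partners of WDR48, were not called, with log2 fold changes of 0.26, 0.22 and 0.02 (adjusted p = 0.138, 0.132 and 0.938).

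Among the 7 tested members of signalling, immunity and the clock, Usp4 rose, from 15.96 ± 1.41 TPM in WT to 21.4 ± 1.14 TPM in UBR4 mKO (log2 fold change 0.42 ± 0.09, adjusted p = 0.00228, and 0.07, adjusted p = 0.450, after scaling). Usp15, its paralogue, measured 56.6, 64.7, 52.3 and 47.6 TPM in 6-month WT and 65.6, 63.1, 68.8 and 72.8 TPM in 6-month UBR4 mKO. At 24 months Usp15 measured 67.0, 64.3, 65.8 and 75.7 TPM in WT and 75.2, 65.6, 51.1 and 78.3 TPM in UBR4 mKO. Its groups overlapped at 6 months (0.30 ± 0.12, adjusted p = 0.0544). Usp2, whose promoter the clock drives in other tissues, was 53.1 ± 14.7 and 56.1 ± 6.38 TPM (0.11 ± 0.17, adjusted p = 0.581), and 1 of 17 tested clock genes was called at 6 months, against 44.9% of all genes. Usp40, whose function is little known, measured 3.02, 4.49, 2.58 and 2.17 TPM in 6-month WT and 4.75, 4.77, 5.15 and 5.52 TPM in 6-month UBR4 mKO. It did not overlap (0.75 ± 0.20, adjusted p = 0.00879) and missed the threshold after scaling (0.41 ± 0.14, adjusted p = 0.0587). Usp6nl was also called (0.45 ± 0.17, adjusted p = 0.0433), but not after scaling (0.12, adjusted p = 0.565), and the call held in 6 of 16 cases when single samples were left out in turn. Of the 4 members of a further role group (Usp39, Usp50, Usp53 and Usp54), 0 were called at 6 months, against 44.9% of all genes. Among them Usp53 (0.52 ± 0.25) and Usp54 (0.53 ± 0.22) had adjusted p = 0.0942 and 0.0599.

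Summed markers of cell types also differed between the 6-month genotypes on deposited TPM. The summed TPM of 7 leukocyte markers ran from 13.9 to 20.5 in WT and from 46.8 to 159.6 in UBR4 mKO, and that of 6 endothelial markers from 80.2 to 109 and from 127 to 137. The sum of 4 satellite cell markers ran from 4.70 to 6.89 and from 8.15 to 10.6 TPM, of 6 adipocyte markers from 294 to 326 and from 396 to 433 TPM, and of 8 myofiber markers from 64628 to 72151 and from 82558 to 91205 TPM. Cd3e, a T cell marker in the leukocyte list, was at 0 in all 6-month WT samples. These 5 sums did not overlap between the genotypes. Those of the fibroblast list (181 to 302 and 248 to 440 TPM), the Schwann cell list (30.3 to 40.2 and 29.8 to 42.3 TPM) and the blood list (548 to 749 and 399 to 671 TPM) overlapped. The part of these cells in the USP differences was not tested. On deposited TPM the median of all genes was itself higher in UBR4 mKO, with a log2 fold change of 0.33. Marker sums here and below are of deposited TPM and were not computed after median-of-ratios scaling, so overlap on that scale is not known. Without 6-month WT replicate 2, in which 38 of 40 members had the highest value of their group, 22 members were called, against 58.8% of all genes. The count was also 22 without 24-month UBR4 mKO replicate 3, against 55.1%, and 10 without 6-month UBR4 mKO replicate 4, against 30.6%.

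At 24 months 0 of the 40 members were called between UBR4 mKO and WT by limma, where 0.63% of all genes were called, and 0 had an unadjusted p under 0.05. After median-of-ratios scaling 0 were called as well, against 0.913% of all genes, and 3 had an unadjusted p under 0.05. The median log2 fold change of the members was -0.04 and that of all genes 0.01. The marker sums of the leukocyte list (26.6 to 55.1 TPM in WT and 66.1 to 284 TPM in UBR4 mKO), the adipocyte list (220 to 289 and 308 to 401 TPM) and the satellite cell list (5.30 to 6.30 and 3.65 to 4.74 TPM) did not overlap at this age, and their part was not tested. The largest positive values were those of Usp20 (0.33 ± 0.18, adjusted p = 0.579, 95% interval -0.04 to 0.70), Usp50 (0.21 ± 0.23, adjusted p = 0.879) and Usp28 (0.12 ± 0.15, adjusted p = 0.903). The interval of Usp14 ran from -0.24 to 0.25 and that of Usp28 from -0.21 to 0.45. The lowest values were those of Usp36, a nucleolar deubiquitinase (-0.22 ± 0.16, adjusted p = 0.746), Usp42, which acts on histone H2B and p53 (-0.22 ± 0.20, adjusted p = 0.846), and Usp31 (-0.20 ± 0.25, adjusted p = 0.900). Usp36 measured 4.48, 5.03, 4.39 and 4.28 TPM in 24-month WT and 3.98, 4.03, 3.01 and 4.69 TPM in 24-month UBR4 mKO, after 3.38, 4.98, 3.64 and 2.88 TPM in WT and 4.09, 4.01, 3.61 and 4.73 TPM in UBR4 mKO at 6 months. Usp42 measured 1.77, 2.15, 1.86 and 2.01 TPM in 24-month WT and 1.86, 1.81, 1.07 and 2.08 TPM in 24-month UBR4 mKO. All of these groups overlapped. Usp39, an inactive relative that belongs to the spliceosome, was the only member whose 24-month genotypes did not overlap, at 14.2, 14.2, 14.6 and 15.8 TPM in WT and 13.0, 13.3, 13.4 and 13.7 TPM in UBR4 mKO (-0.14 ± 0.10, adjusted p = 0.727). Of all genes tested, 5.8% did not overlap in this comparison. Usp39 was singled out after its values were seen.

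The 24-month UBR4 mKO group contained a library that stood apart. Replicate 3 had the lowest value of its group for 35 of 40 members, or 31 after median-of-ratios scaling, and its median log2 difference from the mean of the other 3 samples was -0.55, against -0.20 over all genes. The difference ran from 0.57 for Usp50, whose longest transcript has 2129 bases, to -1.25 for Usp53, with 6185 bases. Across the 40 members Spearman's rho with the length of the longest annotated transcript was -0.71, and across 10312 genes it was -0.64; these points are genes of the same library and not independent replicates. Usp31, a long transcript of 10198 bases, measured 2.35, 1.95, 0.946 and 2.72 TPM in 24-month UBR4 mKO against 2.20, 2.39, 1.84 and 2.21 TPM in WT. Without replicate 3 its log2 fold change at 24 months was 0.11, so its sign rested on that sample. Without replicate 3 the count of members called at 24 months remained 0.

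**Figure D4:**
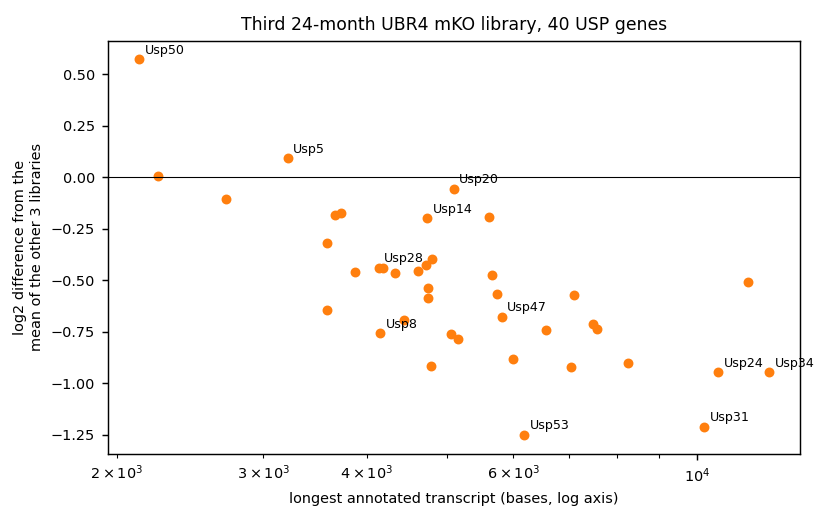
Log2 difference of the third 24-month UBR4 mKO library from the mean of the other 3 samples of its group (y) against the length of the longest annotated transcript in bases (x, log axis), each point 1 of the 40 tested USP genes. The points run from 0.57 for Usp50 down to -1.25 for Usp53, and 37 of 40 lie below 0.

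Usp50 needs care for another reason. Part of its longest transcript, 17.9%, aligns to that of the RNA polymerase subunit gene Polr2l with 99.7% identity, and Polr2l had a mean of 40.8 TPM in 6-month WT, against 2.97 TPM for Usp50. How the deposited values assign such reads is not known here.

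Aging in WT muscle was compared next. From 6 to 24 months 7 of 40 members rose and 0 fell (17.5%), against 25.1% of all genes called and 24% called higher. The members were Usp3, Usp4, Usp5, Usp14, Usp22, Usp28 and Usp39. On deposited TPM all 40 log2 fold changes were above 0, with a median of 0.32 where that of all genes was 0.26, and 8 members, all higher, did not overlap, against 24.1% of all genes. After median-of-ratios scaling 27 of 40 were above 0, with a median of 0.05, and 0 members were called, against 9.77% of all genes, and 4 had an unadjusted p under 0.05. Without 6-month WT replicate 4, which had the lowest value of its group for 39 of 40 members, 2 were called, against 9.17% of all genes. Without 24-month WT replicate 4 the count was also 2 (10.4% of all genes), without 6-month WT replicate 3 it was 3 (12.5%), and without replicate 1 of the 6-month or of the 24-month WT group it was 4 (17.7% and 12.6%). Without 6-month WT replicate 2 it was 24 (46.8%), and without 24-month UBR4 mKO replicate 3 it was 18 (39.3%). It was 7 without 6-month UBR4 mKO replicate 4 (24.7%) and 5 with the Y-linked covariate (19.8%). The ages also differed in Xist, as given above, and the calls with age cannot be told apart from that difference. Marker sums also differed between the ages in WT: at 24 months those of the leukocyte list (26.6 to 55.1 TPM) and of the myofiber list (80256 to 87839 TPM) were higher and those of the adipocyte list (220 to 289 TPM) lower, each without overlap with the 6-month WT values given above. The sums of the other 5 lists overlapped, and the part of these cells was not tested. All of these sums are of deposited TPM, on which the median gene rose as well. Which lists overlap after scaling was not examined.

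Usp5 had the lowest adjusted p of these, with 19.9, 18.8, 19.1 and 23.7 TPM in 24-month WT, all above the 6-month values given above (log2 fold change 0.50 ± 0.11, adjusted p = 0.00572, and 0.23, adjusted p = 0.0904, after scaling). Usp22 rose the most of all members, to 6.38, 6.16, 7.17 and 8.52 TPM, without overlap (0.53 ± 0.16, adjusted p = 0.0282, and 0.26, adjusted p = 0.169, after scaling). Usp14 changed by 0.48 ± 0.12 (adjusted p = 0.01002) and did not overlap, and Usp28 by 0.45 ± 0.15 (adjusted p = 0.0423, and 0.18, adjusted p = 0.268, after scaling) with overlap. With single samples left out in turn, the call with age held in 16 of 16 cases for Usp5 and Usp14, in 14 for Usp4, 12 for Usp39, 11 for Usp3 and Usp22, and 6 for Usp28. Usp4, Usp39 and Usp3 changed by 0.33, 0.32 and 0.43 (adjusted p = 0.0167, 0.0280 and 0.0285). Usp50 (0.52 ± 0.23, adjusted p = 0.0962) and Usp40 (0.51 ± 0.20, adjusted p = 0.0658) had fold changes as large as those called without passing the test. Usp20, which led the genotype comparison, was not called with age in WT (0.22 ± 0.18, adjusted p = 0.327). The values of Usp12 (0.03 ± 0.12), Usp25 (0.13 ± 0.17) and Usp2 (0.15 ± 0.17) were the lowest. The 2 comparisons of 6-month WT with another group share those 4 control samples, so their common direction is not independent: Usp28 changed by 0.95 with loss of UBR4 and 0.45 with age, Usp14 by 0.62 and 0.48, Usp5 by 0.51 and 0.50, Usp22 by 0.57 and 0.53, Usp3 by 0.55 and 0.43, and Usp4 by 0.42 and 0.33.

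**Figure D5:**
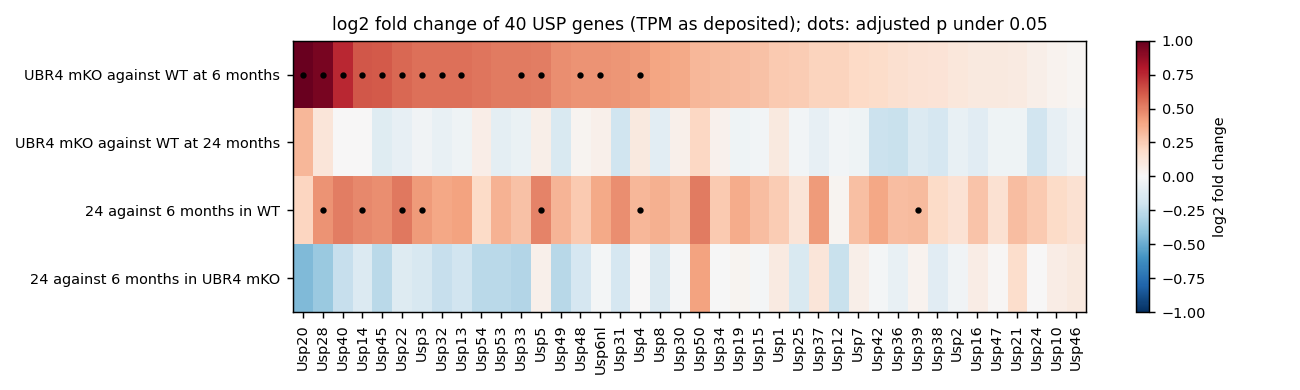
Log2 fold change on deposited TPM of the 40 tested USP genes (columns, ordered by the 6-month difference) in 4 comparisons (rows), red for higher and blue for lower, with a dot at an adjusted p under 0.05. The rows for UBR4 loss at 6 months and for age in WT hold 14 and 7 dots, all on genes that were higher, and the other rows hold 0.

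Aging in UBR4 mKO muscle gave 0 called members, against 6.29% of all genes, and 3 had an unadjusted p under 0.05. After median-of-ratios scaling 1 was called, against 11.3% of all genes, namely Usp28, which was lower at 24 months (-0.31 ± 0.10, adjusted p = 0.0494; on deposited TPM -0.37 ± 0.15, adjusted p = 0.183). Between these ages the sums of endothelial markers (127 to 137 TPM, then 69.4 to 103 TPM) and of satellite cell markers (8.15 to 10.6 TPM, then 3.65 to 4.74 TPM) did not overlap, and their part was not tested. On the scaled values the call of Usp28 was lost without 6-month UBR4 mKO replicate 4 (adjusted p = 0.0714), without 6-month WT replicate 4 (0.0555) and without 24-month UBR4 mKO replicate 3 (0.0866), and passed with the Y-linked covariate (0.0499). Usp20 had the lowest value on deposited TPM (-0.44 ± 0.18, adjusted p = 0.162, 95% interval -0.81 to -0.07), followed by Usp28 and by Usp33 (-0.29 ± 0.13, adjusted p = 0.232). Usp33 measured 6.87, 6.80, 5.32 and 8.19 TPM at 24 months in UBR4 mKO, against 7.29, 6.81, 6.90 and 7.19 TPM in WT. The highest values were those of Usp50 (0.40 ± 0.23, adjusted p = 0.372), Usp21 (0.18 ± 0.13, adjusted p = 0.495) and Usp37, which acts on cyclin A (0.12 ± 0.20, adjusted p = 0.799). Usp50 measured 2.90, 4.16, 3.03 and 4.70 TPM at 6 months and 4.26, 5.58, 6.52 and 3.47 TPM at 24 months in UBR4 mKO. Usp21 measured 3.26, 3.87, 3.54 and 4.00 TPM and then 4.55, 3.60, 3.92 and 4.60 TPM, and Usp37 went from 1.19 ± 0.128 to 1.32 ± 0.306 TPM. All of these overlapped between the ages.

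The interaction asks whether the difference between genotypes changed with age. On deposited TPM it was below 0 for all 40 members, with a median of -0.36 where that of all genes was -0.31, and 2 members were called, against 4.7% of all genes. Usp28 had an interaction of -0.82 ± 0.22 on the log2 scale (adjusted p = 0.0414, 95% interval -1.29 to -0.36) and Usp14 of -0.62 ± 0.17 (adjusted p = 0.0422, interval -0.96 to -0.27). For both, the genotype difference was smaller at 24 than at 6 months. After median-of-ratios scaling 17 of 40 values were above 0, with a median of -0.04 where that of all genes was 0.01. On that scale 0 members were called, against 1.99% of all genes, and the values were -0.49 ± 0.14 for Usp28 (adjusted p = 0.0773) and -0.29 ± 0.12 for Usp14 (adjusted p = 0.213). With the covariate from Y-linked genes both missed the threshold (adjusted p = 0.0513 each), as they did without 6-month UBR4 mKO replicate 4 (0.0753 and 0.0791) or without 24-month UBR4 mKO replicate 3 (0.0568 and 0.0576). The number of members called was 12 without 6-month WT replicate 2 (23.4% of all genes), 5 without 24-month UBR4 mKO replicate 4 (6.27%), 2 without 24-month WT replicate 2 (4.93%), 1 without 24-month UBR4 mKO replicate 1 (4.81%) and 0 without any of the other 12 samples. The interaction of Usp20 was -0.66 ± 0.25 (adjusted p = 0.106), that of Usp40 -0.75 ± 0.29 (0.108), that of Usp22 -0.66 ± 0.23 (0.0892) and that of Usp8 -0.50 ± 0.22 (0.148).

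The remaining 16 members had a mean under 1 TPM and were left out of the test. Usp18, which removes the ubiquitin-like protein ISG15 and is induced by interferon, was the most abundant of them. It measured 0.610, 0.555, 0.685 and 0.714 TPM in 6-month WT and 1.24, 1.03, 0.777 and 0.596 TPM in 6-month UBR4 mKO, which overlapped (exact permutation p = 0.143). In 24-month WT it measured 1.14, 1.12, 0.948 and 1.66 TPM, above all 6-month WT samples (exact permutation p = 0.0286, the smallest possible). Of 8 tested interferon-induced genes 5 were called higher with age in WT and 5 at 6 months in UBR4 mKO, where 24% and 43.7% of all genes were, and 0 in either after median-of-ratios scaling. Usp44, a mitotic checkpoint regulator, measured 0.127, 0.0641, 0.0795 and 0.0408 TPM in 6-month WT and 0.179, 0.301, 0.283 and 0.184 TPM in 6-month UBR4 mKO, without overlap. Usp11, a paralogue of Usp4 and Usp15, was also higher without overlap at 6 months, at 0.465 to 0.754 TPM in WT and 0.835 to 1.14 TPM in UBR4 mKO, and so was Usp43, at 0.126 to 0.201 and 0.221 to 0.402 TPM. Among the genes tested, all with a mean of at least 1 TPM, 39% were higher without overlap in this comparison. The share among genes as low as these members was not counted. Usp29, an imprinted gene of the Peg3 region, was 0.0819 ± 0.0327 TPM in 6-month WT and 0.235 ± 0.0992 TPM in 6-month UBR4 mKO, with overlap (exact permutation p = 0.0571). Usp35 and Usp27x had means of 0.394 and 0.103 TPM. Usp17lc was above 0 in 2 samples and Usp17la and Usp51 in 1 sample each, at no more than 0.0189 TPM.

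Deubiquitinases without a USP symbol, the USP-fold genes Cyld, Pan2 and Uspl1 included, were compared at 6 months to place the members. There were 36 such genes, of which 32 were tested, and 18 were higher and 1 lower in UBR4 mKO, with a median log2 fold change of 0.41, where 44.9% of all genes were called and their median was 0.33. After median-of-ratios scaling 2 were higher and 5 lower, with a median of 0.06, against 16.8% and -0.02 for all genes. Uchl1, a small ubiquitin hydrolase typical of neurons, changed most, from 2.47 ± 0.698 to 11.5 ± 3.39 TPM (2.16 ± 0.35, adjusted p = 0.000412, and 1.82 after scaling, adjusted p = 0.00437). Yod1, an OTU deubiquitinase that acts with the segregase VCP, went from 0.778 ± 0.220 to 1.52 ± 0.217 TPM (0.91 ± 0.19, adjusted p = 0.00194, and 0.60 after scaling, adjusted p = 0.0107). Otub2 was lower, at 4.83 ± 1.45 TPM in WT and 3.01 ± 0.632 TPM in UBR4 mKO (-0.64 ± 0.20, adjusted p = 0.0190, and -0.98 after scaling, adjusted p = 0.00218). Psmd14, the deubiquitinase within the proteasome lid, went from 27.6 ± 2.07 to 36.1 ± 1.57 TPM (0.39 ± 0.09, adjusted p = 0.00488, and 0.04 after scaling, adjusted p = 0.833).

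Genes of proteins that work with USPs were counted in the same way. Of 12 tested partners, 8 were higher in UBR4 mKO at 6 months and 6 were higher with age in WT, where 43.7% and 24% of all genes were. After scaling these counts were 1 and 3, where 708 and 472 of the 10628 genes tested were called higher. In either direction 16.8% and 9.77% of all genes were called. Stam2 and Hgs, the endosomal sorting partners of Usp8, and G3bp1, the partner of Usp10, were the 3 called with age after scaling. Hgs went from 7.34 ± 0.989 TPM in 6-month WT to 14.05 ± 2.21 TPM in 24-month WT (0.92 ± 0.14, adjusted p = 0.000368, and 0.65 after scaling, adjusted p = 0.00341). Stam2 went from 2.18 ± 0.436 to 3.79 ± 0.632 TPM (0.78 ± 0.16, adjusted p = 0.00452, and 0.51 after scaling, adjusted p = 0.00652), and G3bp1 from 20.01 ± 3.60 to 29.0 ± 2.92 TPM (0.54 ± 0.12, adjusted p = 0.00647, and 0.27 after scaling, adjusted p = 0.0283). Usp8 itself was not called with age (0.35 ± 0.16, adjusted p = 0.0952, and 0.08 after scaling, adjusted p = 0.645), and its difference from its partners was not tested.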

How the data were processed

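RNA of 16 samples of mouse tibialis anterior muscle was sequenced. Reads were trimmed, filtered and mapped to mm10 (named in the submitters' processing notes), and the authors deposited TPM values per gene. The labels name a stranded kit and the methods a kit that does not mark strand, and the use of strand in counting is not given in the sources used here. TPM keeps no depth, so precision comes only from the spread between samples, which are assumed to be separate mice.

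The 10628 genes that averaged 1 TPM or more were fitted on the scale log2(TPM + 0.1) with limma 3.58.1 in R 4.3.3, with a coefficient for each group and a variance trend. P-values were adjusted by Benjamini-Hochberg across these genes, and calls were made at 0.05. Exact two-sided permutation tests used the 70 assignments of 4 against 4 samples. Median-of-ratios factors were computed on the 14470 genes that no sample lists at 0. The fit was tested on simulated data. Positions and lengths are from GENCODE vM21, and 43 members matched a RefSeq promoter outside chromosome 18. Transcripts were aligned with minimap2 2.31, and Python 3.11.15 with matplotlib 3.10.9 drew the figures.

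The members, role groups and gene lists were chosen with earlier results of these data known. Genes described sample by sample were Usp8, the 3 most abundant members, members called in both scalings, at 24 months or in the interaction, and the 3 largest rises and falls of each comparison, and some others were added to fill role groups after their values were seen. Alternatives that combine scaling with a left-out library, or add a Y-linked covariate, were chosen after seeing the data.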

Additional observations from a re-analysis of the deposited data

Results flagged for a closer look

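In 3 cases 1 sample lay far from the other 3 of its group. Usp47 was 100.4 TPM in 6-month UBR4 mKO replicate 4, against 79.1 to 82.4 TPM in the other samples. Usp20 was 5.61 TPM in the same library, against 4.29 to 4.45 TPM. Usp14 was 17.1 TPM in 24-month WT replicate 4, against 13.1 to 13.5 TPM. The 16 genes described by rule gave 64 groups of 4, of which chance alone would mark about 3.2.

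On deposited TPM the interaction term of the limma fit passed the threshold for Usp14 (-0.62, adjusted p = 0.0422) and for Usp28 (-0.82, adjusted p = 0.0414). Neither call held after median-of-ratios scaling (adjusted p = 0.213 and 0.0773), with the Y-linked covariate or with the replicate number as a block, and with single samples left out in turn it held in 3 of 16 cases for Usp14 and 4 of 16 for Usp28.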

How the results depend on the processing

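The deposited TPM carry no read counts, so counting error is unknown. Of the values by which the rule chose a gene, in the comparison that chose it, 560 kept their direction and side of the threshold under an alternative, 64 lost the call, 5 gained it and 5 turned sign. The tally leaves out values of the same genes in other comparisons, more of which turned sign, such as those of Usp47 (-0.26) and Usp21 (-0.25) at 6 months with median-of-ratios scaling.

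Counts are of 40 members, with the share of all genes called in brackets. At 6 months 14 members were called. The count was 9 of 24 tested with a minimum of 5 TPM (45.9%), 6 with median-of-ratios scaling (16.8%), 4 of 42 tested with mitochondrial genes left out (14.8%), 24 with array weights (64.1%) and 9 with the Kruskal-Wallis and Dunn test (23.4%). With scaling it was 12 without 24-month UBR4 mKO replicate 3 (28.0%), 5 without 6-month WT replicate 4 (10.7%), 6 without 6-month UBR4 mKO replicate 4 (16.1%) and 4 with the Y-linked covariate (14.8%). Leaving out each sample gave 10 to 22. With age in WT 7 were called. The count was 0 with median-of-ratios scaling (9.77%), 1 of 42 tested with mitochondrial genes left out (9.45%), 28 with array weights (61.5%) and 0 with the Dunn test, which called 0 of all genes. With scaling it was 2 without 24-month UBR4 mKO replicate 3 (18.9%), and 0 without either 6-month replicate 4 or with the covariate. Leaving out each sample gave 2 to 24. With age in UBR4 mKO the count of 0 became 1 with median-of-ratios scaling (11.3%), 1 with array weights (16.4%), 3 with scaling without 24-month UBR4 mKO replicate 3 (14.8%) and 1 with scaling and the covariate (9.63%). At 24 months it was 0 when each sample was left out. The interaction called 2. The count was 0 without a filter, with median-of-ratios scaling, with mitochondrial genes left out, with the covariate and with each combination with scaling, 7 with array weights (26.9%), and 0 to 12 with each sample left out. The cause of these changes was not tested.

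Same-numbered samples of different groups did not deviate together. The correlations of their deviations ran from -0.35 to 0.18 over 24 pairs, with a median of 0.02, and 4 were over 0.1, so the numbers were not taken as pairs. With the replicate number as a block, 13 members were called at 6 months (39.9% of all genes), 5 with age in WT (19.0%), and 0 at 24 months (0.358%), with age in UBR4 mKO (5.01%) and in the interaction (2.67%).

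Among the genes described for the highest and lowest values at 24 months, the signs that turned were those of Usp50 (-0.0103 with scaling and without UBR4 mKO replicate 3), Usp42 (0.00466 with array weights) and Usp31 (0.0309 with array weights, 0.0289 with scaling and without replicate 3, and from -0.37 to 0.11 with each sample left out, the last without UBR4 mKO replicate 3). Other members with values near 0 at 24 months also turned sign, such as Usp14 (-0.09 to 0.09), and none of the 40 was called there under any alternative.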
